A study of Mesocricetus auratus with 8 samples.

Results

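The genes examined here encode the proteasome, its activators, its inhibitor and its assembly chaperones. They were taken as every row of the deposited gene table whose name begins with Psm, then a letter from a to g, then a digit, which gave 48 of 20360 rows. The table holds read counts from the hearts of 8 female golden hamsters (Mesocricetus auratus), 1 polyA RNA library per animal, sampled at 25 weeks of age. The series design describes the animals as wild type or as having lost heterozygosity at Myh6, which encodes a cardiac myosin heavy chain, and as sampled ahead of dilated cardiomyopathy. Myh6 itself was not analysed here. The labels give each animal a code, M5F followed by 5, 7, 12, 16, 19, 22, 55 or 56, and no genotype, so no genotypes were compared and no library served as a replicate of another. The sources used here name neither a strain nor a treatment.

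The proteasome is the cell's main machine for degrading proteins tagged with ubiquitin. Its 20S core is a barrel of stacked rings, with alpha subunits (Psma genes) in the outer rings that gate the entrance and beta subunits (Psmb genes) in the inner rings that hold the proteolytic sites. The 19S cap recognises the tagged substrate, removes the ubiquitin and unfolds the protein with a ring of ATPases (Psmc genes) helped by non-ATPase subunits (Psmd genes). In cells exposed to interferon gamma, and constitutively in many leukocytes, the catalytic subunits Psmb5, Psmb6 and Psmb7 are exchanged for Psmb8, Psmb9 and Psmb10, which gives the immunoproteasome, and the activator of Psme1 and Psme2 is induced. In heart muscle the proteasome is known for the turnover of sarcomere proteins.

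Levels are given as CPM, the count per 1e6 counts of the library total after scaling by the trimmed mean of M-values (TMM), and are compared between libraries within a gene, since no transcript lengths were used. The fold of a gene is its highest library over its lowest, with 0.5 counts added before the log, and the trimmed fold is its second-highest library over its second-lowest. Total counts were 13608500 to 15255764 per library. The proteasome rows took 0.448 to 0.513% of them, lowest in M5F12 and M5F16 and highest in M5F5. All 8 cardiomyocyte markers examined were measured in every library, with a summed level of 64701 CPM in M5F12 to 81887 CPM in M5F7, as for heart tissue. Over the 28 pairs of libraries the chi-square per gene was 11.0 to 45.0, far above the value near 1 of repeated counting of the same library, so each library was kept as its own sample.

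Of the 48 rows, 46 had a mean count of at least 50 and were tested. Psma8, an alpha subunit known from mouse testis, and Psmb11, a beta subunit known from mouse thymus, had a count of 0 in every library, which allows up to 0.199 to 0.214 CPM per library. Psmc3ip, which the name rule takes in, encodes a factor of meiotic recombination and not a proteasome subunit, and ran from 2.71 to 4.55 CPM without differing beyond counting error (chi-square test, adjusted p = 0.117). Psmb10, the third immunoproteasome catalytic subunit, was not analysed here.

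Proteasome genes spanned small ranges between these hearts. Of the 46 tested, 40 (87.0%) differed among the libraries beyond counting error, close to the 86.4% of all 10909 genes tested (chi-square test with Benjamini-Hochberg adjustment over all of them). Their differences were small in size, since 4 members (8.70%) spanned 1.5-fold or more, against 42.2% of all genes tested, and 1 member (2.17%) spanned 2-fold, against 13.9%. By the trimmed fold 1 member spanned 1.5-fold, against 16.2% of all genes tested. The median fold was 1.33 over the members and 1.45 over all genes tested. Proteasome genes were also more abundant, with a median of 98.3 CPM against 27.7 CPM for all genes tested, and abundant genes have less counting error. When genes averaging under 500 counts were left out, the median fold was 1.34 over the 20S core, 1.22 over the 19S cap and 1.33 over all genes, so the core was then no narrower than genes at large. The 4 members past 1.5-fold were Psmb9, Psmb8, Psme4 and Psma7. The 6 that did not differ beyond counting error were Psmc3ip, the cap subunit Psmd11, the activator Psme3 and the chaperones Psmd5, Psmg2 and Psmg4.

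**Figure D1:**
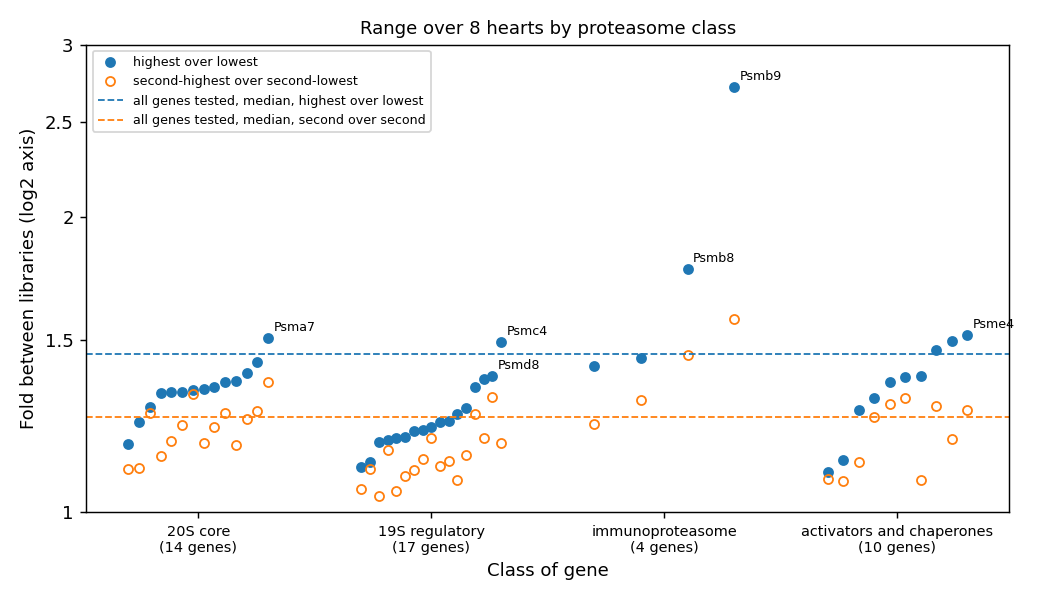
Fold between libraries (log2 axis) for each tested gene of 4 proteasome classes. Filled points are the highest over the lowest library, open points the second-highest over the second-lowest, and dashed lines the medians of all 10909 genes tested (1.45 and 1.25). Psmb9 at 2.72-fold and Psmb8 at 1.77-fold lie above the other members, and 16 of 17 genes of the 19S cap lie below the upper line.

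The 20S core moved largely together between animals. All 14 core genes differed beyond counting error, with a median fold of 1.34 (1.17 to 1.51), and 13 of the 14 lay below the median fold of all genes. Their summed level was 1964 CPM in M5F5, 1878 in M5F7, 1805 in M5F22, 1741 in M5F55, 1691 in M5F56, 1673 in M5F19, 1535 in M5F12 and 1521 in M5F16. Of the 14 genes, 13 were above their own median in M5F5, 13 in M5F22 and 12 in M5F7, but 1 in M5F12 and 0 in M5F16. M5F5 held the highest value of 10 of them (71.4%), against 16.5% of all genes tested, and M5F12 and M5F16 each held the lowest value of 6 (42.9%). Of all genes tested, M5F12 held the lowest value of 13.9%.

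Psma7, an alpha ring subunit, had the widest range of the core. It was at 128 CPM in M5F5, 121 in M5F7, 107 in M5F22, 107 in M5F55, 100.1 in M5F56, 91.4 in M5F19, 89.0 in M5F16 and 84.9 in M5F12, a fold of 1.51. M5F5 and M5F7 were high, and the 95% Poisson intervals of the highest library (122.0 to 134 CPM) and of the lowest (80.2 to 89.7 CPM) did not overlap. Psma2, also of the alpha ring, had the narrowest range, 1.17-fold, at 154 CPM in M5F5, 144 in M5F7, 133 in M5F12, 131 in M5F16, 143 in M5F19, 147 in M5F22, 144 in M5F55 and 145 in M5F56. Psma4 was at 118 CPM in M5F5, 112 in M5F7, 109 in M5F12, 98.3 in M5F16, 108 in M5F19, 122 in M5F22, 108 in M5F55 and 119 in M5F56, low in M5F16. Psma3, Psma5 and Psma6 spanned 1.33-fold to 1.36-fold.

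The catalytic beta subunits were high and low in the same animals. Psmb5, which cuts after hydrophobic residues, was at 149 CPM in M5F5, 159.7 in M5F7, 120.4 in M5F12, 121 in M5F16, 129 in M5F19, 141 in M5F22, 143 in M5F55 and 134 in M5F56. Psmb6, which cuts after acidic residues, was at 201 CPM in M5F5, 191 in M5F7, 145 in M5F12, 153 in M5F16, 183 in M5F19, 184 in M5F22, 185 in M5F55 and 171 in M5F56. Psmb7, which cuts after basic residues, was at 193 CPM in M5F5, 193 in M5F7, 145 in M5F12, 146 in M5F16, 165 in M5F19, 176 in M5F22, 164 in M5F55 and 159 in M5F56. In each of the 3, M5F12 and M5F16 were the lowest pair and M5F5 and M5F7 the highest pair. Psmb4, a structural beta subunit, was at 206 CPM in M5F5, 196 in M5F7, 144 in M5F12, 154 in M5F16, 159.6 in M5F19, 179.9 in M5F22, 174 in M5F55 and 166 in M5F56, a fold of 1.42. Psmb1, Psmb2 and Psmb3 spanned 1.28-fold to 1.36-fold.

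**Figure D2:**
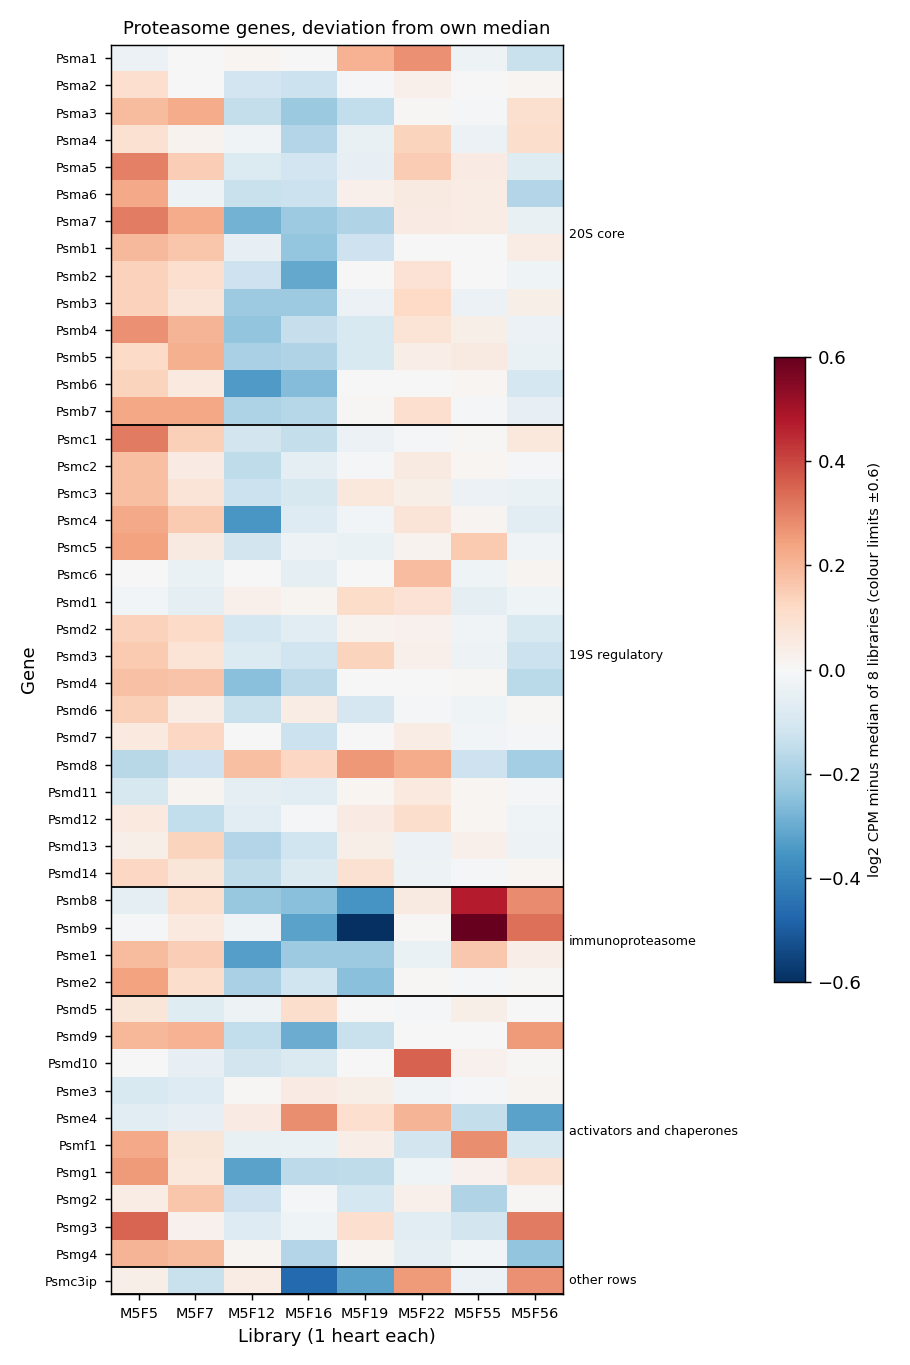
Log2 CPM of each tested proteasome gene (rows, grouped by class) minus that gene's median over the 8 libraries (columns, 1 heart each), with colours held within 0.6 either way. Most core and ATPase genes are above their median in M5F5 and M5F7 and below it in M5F12 and M5F16, while Psmb8 and Psmb9 are highest in M5F55 and lowest in M5F19.

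Markers of heart cell types also differed between these animals. The summed cardiomyocyte markers were lowest in M5F12 (64701 CPM) and M5F16 (69833 CPM) and highest in M5F7 (81887 CPM), M5F5 (80697 CPM) and M5F22 (80563 CPM), with all 8 above their own medians in M5F22. M5F12 held the lowest value of 6 of the 8, against 13.9% of all genes tested. Ryr2 went the other way, lowest in M5F5 (1128 CPM) and M5F7 (1172 CPM) and highest in M5F19 (1636 CPM) and M5F16 (1626 CPM). The 6 endothelial markers were at a summed 1224 CPM in M5F7 and 1114 in M5F5, against 818 CPM in M5F12, 782 in M5F16, 764 in M5F19 and 791 in M5F22. They were thus high in M5F5 and M5F7, as the core was, and low in M5F22, where the core was high. The endothelial sum was also high in M5F55 (1052 CPM), where the core was near its median, and was 970 CPM in M5F56. Of the 9 leukocyte markers tested, M5F12 held the highest value of 7 and M5F5 the lowest of 5, against 9.26% and 13.3% of all genes tested. In tissue RNA a change in the share of a cell type and a change of RNA per cell cannot be told apart, and the part of the cell mix in the order of the core genes was not tested.

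Psma1 is uncertain in this table. Besides the row under its symbol, the row LOC101822549 carries the gene number that RefSeq (assembly BCM_Maur_2.0) pairs with Psma1. The row under the symbol was at 26.8 CPM in M5F5, 27.5 in M5F7, 27.7 in M5F12, 27.4 in M5F16, 31.7 in M5F19, 33.2 in M5F22, 26.9 in M5F55 and 25.0 in M5F56, high in M5F19 and M5F22. The row LOC101822549 was at 117 CPM in M5F5, 116 in M5F7, 91.0 in M5F12, 81.7 in M5F16, 98.8 in M5F19, 101 in M5F22, 102 in M5F55 and 106 in M5F56, high in M5F5 and M5F7 and low in M5F16 and M5F12 like most other core genes. The row under the symbol held 18.7% of the counts of both rows in M5F5 and 25.1% in M5F16. How reads were divided between the rows was not stated by the submitters.

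**Figure D3:**
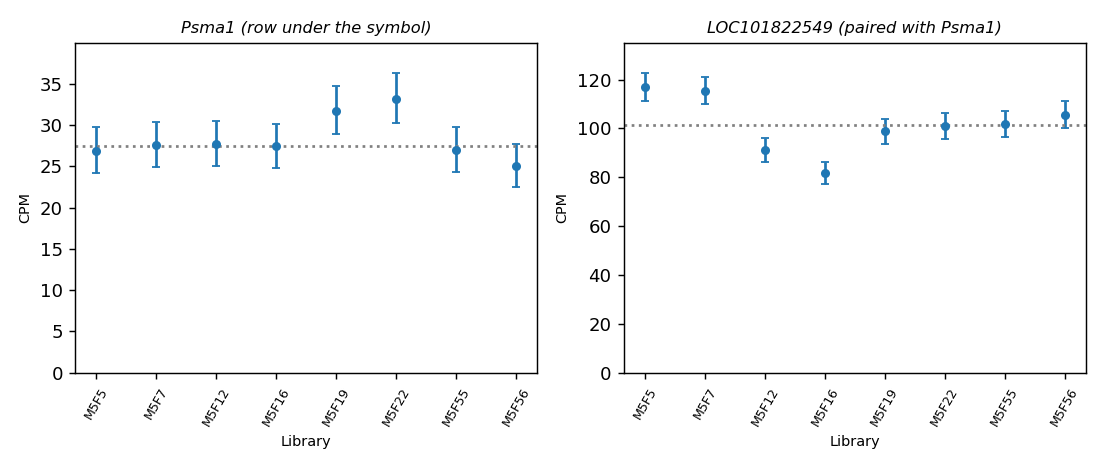
CPM by library of the Psma1 row (left) and of LOC101822549 (right), with exact 95% Poisson intervals, which cover counting error only; dotted lines are medians. The left row is highest in M5F22 (33.2 CPM), the right row in M5F5 (117 CPM).

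The 19S cap had the lowest median fold of the 4 classes, although with genes under 500 counts left out the activators and chaperones had 1.22 as well. Of its 17 genes 16 differed beyond counting error, none spanned 1.5-fold, and the median fold was 1.22 (1.11 to 1.49). Its summed level ran from 2151 CPM in M5F12 to 2511 in M5F5, a ratio of 1.17, where the core's ratio was 1.29. Within the cap the 6 ATPases spanned a median of 1.27-fold, the base non-ATPases Psmd1, Psmd2 and Psmd4 1.18-fold and the 8 lid subunits 1.21-fold. M5F5 held the highest value of 5 of the 6 ATPases and of 3 of the 8 lid genes, and M5F12 the lowest of 4 ATPases and 3 lid genes. Core and cap together had 20 of 31 genes highest in M5F5 and 0 highest in M5F12, M5F16, M5F55 or M5F56. Of all genes tested, 16.5% were highest in M5F5, 9.26% in M5F12, 11.2% in M5F16, 6.01% in M5F55 and 10.8% in M5F56. M5F12 held the lowest value of 13.9% of them.

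Psmc1, an ATPase of the base, was at 156 CPM in M5F5, 139 in M5F7, 116 in M5F12, 114 in M5F16, 123 in M5F19, 125 in M5F22, 126 in M5F55 and 132 in M5F56, highest in M5F5, whose 95% Poisson interval was 149 to 163 CPM. Psmc4 spanned 1.49-fold, the widest of the cap, with M5F12 at 69.05 CPM and the other 7 at 83.3 to 103 CPM, and its trimmed fold was 1.18. Psmd4, a ubiquitin receptor of the cap, was at 220.1 CPM in M5F5, 219 in M5F7, 164 in M5F12, 175 in M5F16, 195 in M5F19, 195 in M5F22, 196 in M5F55 and 174 in M5F56, with the same 2 libraries highest as in the core. Psmd14, the deubiquitinase of the lid, ran from 69.5 CPM in M5F12 to 84.4 in M5F5. The ATPases Psmc2, Psmc3 and Psmc5 spanned 1.24-fold to 1.28-fold and were each highest in M5F5 and lowest in M5F12. Psmc6 spanned 1.18-fold and was highest in M5F22 (202.7 CPM). Psmd2, Psmd3, Psmd6, Psmd7, Psmd12 and Psmd13, of base and lid, spanned 1.18-fold to 1.24-fold.

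Some cap genes did not follow that order, among them Psmd1, Psmd11, Psmd8 and Psmd12. Psmd12, a lid subunit, was lowest in M5F7 (55.2 CPM) and highest in M5F22 (66.0 CPM). Psmd1, the large scaffold of the base, was at 187 CPM in M5F5, 182 in M5F7, 194 in M5F12, 192 in M5F16, 205 in M5F19, 202 in M5F22, 182 in M5F55 and 186 in M5F56, a fold of 1.12 with M5F19 and M5F22 highest. Psmd11, a lid subunit, had the narrowest range of the cap, 1.11-fold, at 107 CPM in M5F5, 116 in M5F7, 110.4 in M5F12, 109.5 in M5F16, 115 in M5F19, 119 in M5F22, 115 in M5F55 and 114 in M5F56, and its spread was within counting error (chi-square test, adjusted p = 0.058). Psmd8, a lid subunit, was at 24.3 CPM in M5F12, 23.3 in M5F16, 25.6 in M5F19 and 25.0 in M5F22, and at 19.1 CPM in M5F5, 19.6 in M5F7, 19.6 in M5F55 and 18.6 in M5F56. The first 4 libraries were all higher than the other 4, and the 95% Poisson interval of its highest library was 23.1 to 28.3 CPM, that of its lowest 16.4 to 20.9 CPM.

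The immunoproteasome had the highest median fold of the 4 classes, 1.60 over 4 genes, and its catalytic subunits were highest in M5F55 and M5F56, where the core was near its median, and lowest in M5F19, M5F16 and M5F12, the 3 libraries with the lowest core sums. Psmb9 was at 7.93 CPM in M5F5, 8.29 in M5F7, 7.83 in M5F12, 6.36 in M5F16, 4.98 in M5F19, 7.99 in M5F22, 13.6 in M5F55 and 10.02 in M5F56. M5F55 was the highest, with a 95% Poisson interval of 11.8 to 15.6 CPM, and M5F19 the lowest, with 3.91 to 6.27 CPM, a fold of 2.72 that was wider than that of 96.0% of all genes tested. Psmb8 was at 16.5 CPM in M5F5, 18.3 in M5F7, 14.6 in M5F12, 14.4 in M5F16, 13.4 in M5F19, 17.8 in M5F22, 23.7 in M5F55 and 20.8 in M5F56, a fold of 1.77. Its highest and lowest libraries were those of Psmb9. Without M5F55 no member spanned 2-fold, and the fold of Psmb8 was 1.53. Psmb9 alone spanned 1.5-fold by the trimmed range, and without M5F16, M5F19, M5F55 or M5F56 no member did.

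Across the 8 hearts Psmb8 and Psmb9 were in the same rank order. Pearson r was 0.94 (two-sided exact permutation p = 2.48e-05, the smallest that these pairings allow; adjusted p = 0.000223) and Spearman rho was 1 (exact permutation p = 4.96e-05, adjusted p = 0.000446), and r was 0.88 without M5F19 and M5F55. The pairs were 10 as planned, of which 9 could be computed, and p-values were adjusted over these 9 within each coefficient. In 4 of the 9 the unadjusted p of r was under 0.05, and in 2 the adjusted p was.

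The share of both subunits against their core counterparts varied as well. Of the counts of Psmb8 and its counterpart Psmb5, Psmb8 took 14.2% in M5F55 (exact Clopper-Pearson 95% interval 12.9 to 15.7%), 13.4% in M5F56, 11.1% in M5F22, 10.8% in M5F12, 10.6% in M5F16, 10.3% in M5F7, 9.95% in M5F5 and 9.37% in M5F19 (8.16 to 10.7%). Of the counts of Psmb9 and Psmb6, Psmb9 took 6.84% in M5F55 (5.94 to 7.83%), 5.55% in M5F56, 5.13% in M5F12, 4.16% in M5F22, 4.16% in M5F7, 3.98% in M5F16, 3.79% in M5F5 and 2.65% in M5F19 (2.08 to 3.32%). Both shares were highest in M5F55 and lowest in M5F19, and these intervals cover counting error only. The shares are of counts and not of molecules. Psmb5 and Psmb8 themselves had r = 0.54 (exact permutation p = 0.164, adjusted p = 0.245) and rho = 0.60 (exact permutation p = 0.132, adjusted p = 0.198), with r = 0.54 without M5F7 and M5F12.

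**Figure D4:**
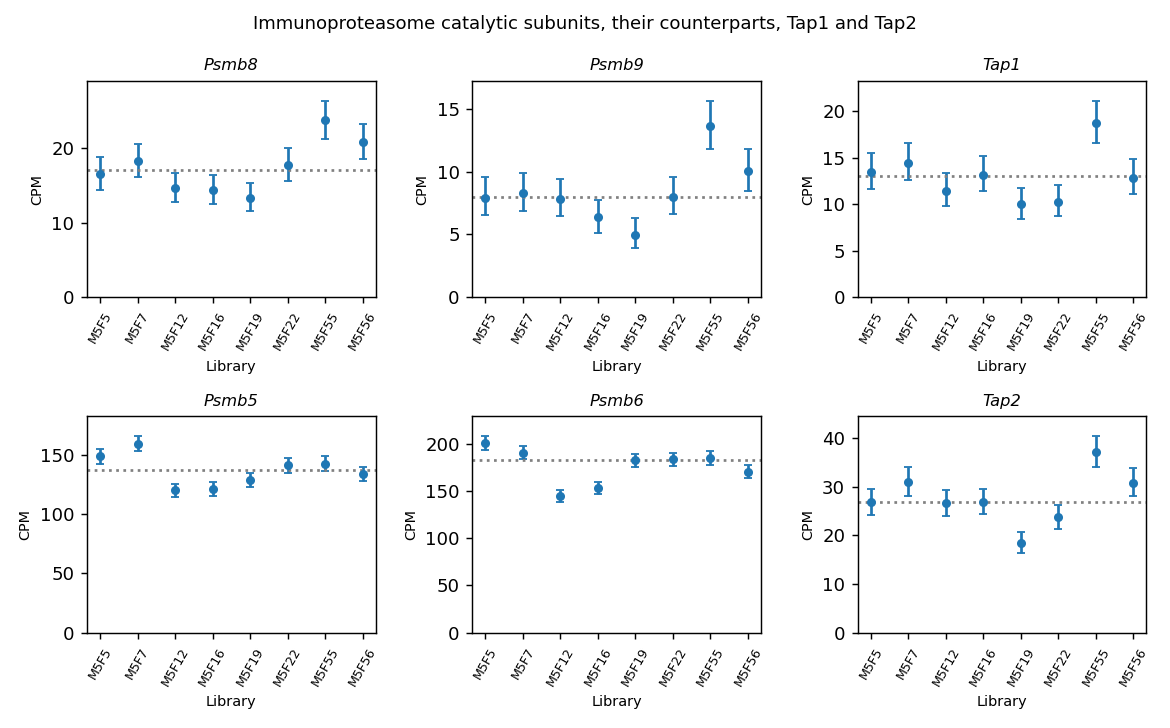
CPM by library, with exact 95% Poisson intervals, of the immunoproteasome subunits Psmb8 and Psmb9 with Tap1 (top) and of Psmb5, Psmb6 and Tap2 (bottom); dotted lines are medians. Psmb8, Psmb9, Tap1 and Tap2 are highest in M5F55 (23.7, 13.6, 18.7 and 37.1 CPM), Psmb5 in M5F7 (159.7 CPM) and Psmb6 in M5F5 (201 CPM).

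Neighbouring and antigen-processing genes were mixed in their order. In RefSeq's gene table Psmb9, Tap1, Psmb8 and Tap2 follow one another, and Psmb9 and Tap1 overlap, so their reads may not be fully separable. Tap1, a subunit of the peptide transporter, was at 13.4 CPM in M5F5, 14.5 in M5F7, 11.4 in M5F12, 13.2 in M5F16, 9.97 in M5F19, 10.2 in M5F22, 18.7 in M5F55 and 12.8 in M5F56. Psmb9 and Tap1 had r = 0.77 (exact permutation p = 0.0337, adjusted p = 0.101) and rho = 0.62 (exact permutation p = 0.115, adjusted p = 0.198), but r = 0.0032 without M5F19 and M5F55, so the relation rests on those 2 animals. Tap2, Tapbp, B2m and Nlrc5, a transactivator of these genes, were likewise highest in M5F55 (37.1, 189, 879.7 and 36.1 CPM). All were lowest in M5F19 (18.4, 153, 606 and 17.5 CPM). Other antigen-processing genes of the same list were not, since Calr was highest in M5F19 (106 CPM, with 87.9 in M5F55), Pdia3 in M5F12 (266 CPM, with 225 in M5F55) and Erap1 in M5F22 (91.99 CPM, with 73.4 in M5F55). Apart from Tap1, these genes were chosen after their values were seen.

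The wider interferon list shared the extremes of M5F55 and M5F19 only in part. Its 23 rows had their highest sum in M5F55 (2019 CPM) and their lowest in M5F19 (1669 CPM), with B2m a large part of it. Of its 20 tested genes, 15 (75.0%) were above their own median in M5F55, against 47.4% of all genes tested. In M5F19 5 (25.0%) were, against 50.1%. Of the 20 genes, 5 were highest in M5F55, against 6.01% of all genes tested, and 6 in M5F12, against 9.26%. M5F19 held the lowest value of 8, against 1634 of the 10909 genes tested, and 14 (70.0%) spanned 1.5-fold, against 42.2%. Irf1, a transcription factor induced by interferon gamma, was highest in M5F7 (22.8 CPM) and lowest in M5F16 (12.2 CPM). The 3 with the widest trimmed range were Ifit2 (3.64 to 8.81 CPM, highest in M5F22), Irf7 (15.3 to 42.2 CPM, highest in M5F12) and Mx2 (6.96 to 17.0 CPM, highest in M5F22).

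Many leukocytes express the immunoproteasome, and their markers are given beside it. All 12 marker rows found had counts in every library, and 7 of the 9 tested were highest in M5F12, against 9.26% of all genes tested. The 12 rows had their highest sum in M5F55, 401 CPM, and their lowest in M5F5, 259 CPM, with 376 in M5F56, 357 in M5F12 and 270 in M5F19. Cd74 made up much of this sum, at 287 CPM in M5F55 and 159 in M5F19. Ptprc, the pan-leukocyte gene, was highest in M5F12 (11.1 CPM), with 6.18 CPM in M5F55 and 4.23 in M5F19, and Cd3e, of T cells, had 68 counts over all 8 libraries. The macrophage receptor Csf1r was at 17.6 CPM in M5F55 and 18.98 in M5F19. Psmb8 and Csf1r had r = -0.20 (exact permutation p = 0.638, adjusted p = 0.638) and rho = -0.24 (exact permutation p = 0.582, adjusted p = 0.582), with r = -0.25 without M5F19 and M5F55. The part of leukocytes in the levels of Psmb8 and Psmb9 was not tested.

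Psme1 and Psme2, the interferon-inducible activator, were both highest in M5F5, as most core genes were, and not in M5F55, where Psmb8 and Psmb9 were highest. Psme1 was at 108 CPM in M5F5, 105 in M5F7, 74.9 in M5F12, 81.1 in M5F16, 81.1 in M5F19, 91.9 in M5F22, 106 in M5F55 and 96.9 in M5F56, a fold of 1.44. Psme2 was at 94.3 CPM in M5F5, 85.7 in M5F7, 69.7 in M5F12, 73.3 in M5F16, 66.9 in M5F19, 80.2 in M5F22, 79.5 in M5F55 and 80.02 in M5F56, a fold of 1.41. M5F12, M5F16 and M5F19 were the lowest 3 in each. They had r = 0.88 (exact permutation p = 0.00412, adjusted p = 0.0185) and rho = 0.76 (exact permutation p = 0.0368, adjusted p = 0.1375), with r = 0.87 without M5F12 and M5F16. The adjusted p of r (exact permutation) was 0.0643, 0.0607 and 0.0563 without M5F5, M5F7 and M5F16. The genes lie near each other with Emc9 between them in RefSeq's gene table.

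The other activators and the inhibitor went separate ways. Psme4, the large activator that opens the core without ubiquitin, spanned 1.52-fold, at 193 CPM in M5F5, 195 in M5F7, 209 in M5F12, 245 in M5F16, 217 in M5F19, 233 in M5F22, 183 in M5F55 and 162 in M5F56. M5F16, lowest for the summed core, was its highest library, and M5F12, M5F16, M5F19 and M5F22 were all above the other 4. Psme3, the nuclear activator, had the narrowest range of all members, 1.10-fold, at 83.0 CPM in M5F5, 83.8 in M5F7, 88.7 in M5F12, 91.3 in M5F16, 90.6 in M5F19, 86.9 in M5F22, 87.9 in M5F55 and 89.3 in M5F56, within counting error (adjusted p = 0.184). Psmf1, the inhibitor PI31, ran from 54.2 CPM in M5F22 to 70.9 in M5F55, with 68.5 in M5F5.

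Among the assembly chaperones, 2 of 4 for the core and 2 of 3 for the base differed beyond counting error, against 86.4% of all genes tested. Psmg1 ran from 27.04 CPM in M5F12 to 40.4 in M5F5. Psmg3 was at 11.9 CPM in M5F5, 9.53 in M5F7, 8.87 in M5F12, 9.20 in M5F16, 10.04 in M5F19, 8.95 in M5F22, 8.68 in M5F55 and 11.6 in M5F56, high in M5F5 and M5F56. Psmg4 was at 14.0 CPM in M5F5, 13.8 in M5F7, 12.3 in M5F12, 10.7 in M5F16, 12.3 in M5F19, 11.7 in M5F22, 12.01 in M5F55 and 10.3 in M5F56, within counting error (adjusted p = 0.0538), as was Psmg2 at 8.68 to 11.0 CPM (adjusted p = 0.562). Of the base chaperones, Psmd9 was at 17.5 CPM in M5F5, 17.6 in M5F7, 13.7 in M5F12, 12.4 in M5F16, 13.9 in M5F19, 15.2 in M5F22, 15.2 in M5F55 and 18.1 in M5F56. Psmd5 was at 48.9 CPM in M5F5, 44.2 in M5F7, 45.4 in M5F12, 49.99 in M5F16, 46.4 in M5F19, 46.03 in M5F22, 47.5 in M5F55 and 46.5 in M5F56, within counting error (adjusted p = 0.370). Psmd10 was at 23.5 CPM in M5F22 and at 17.1 to 18.7 CPM in the other 7.

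**Figure D5:**
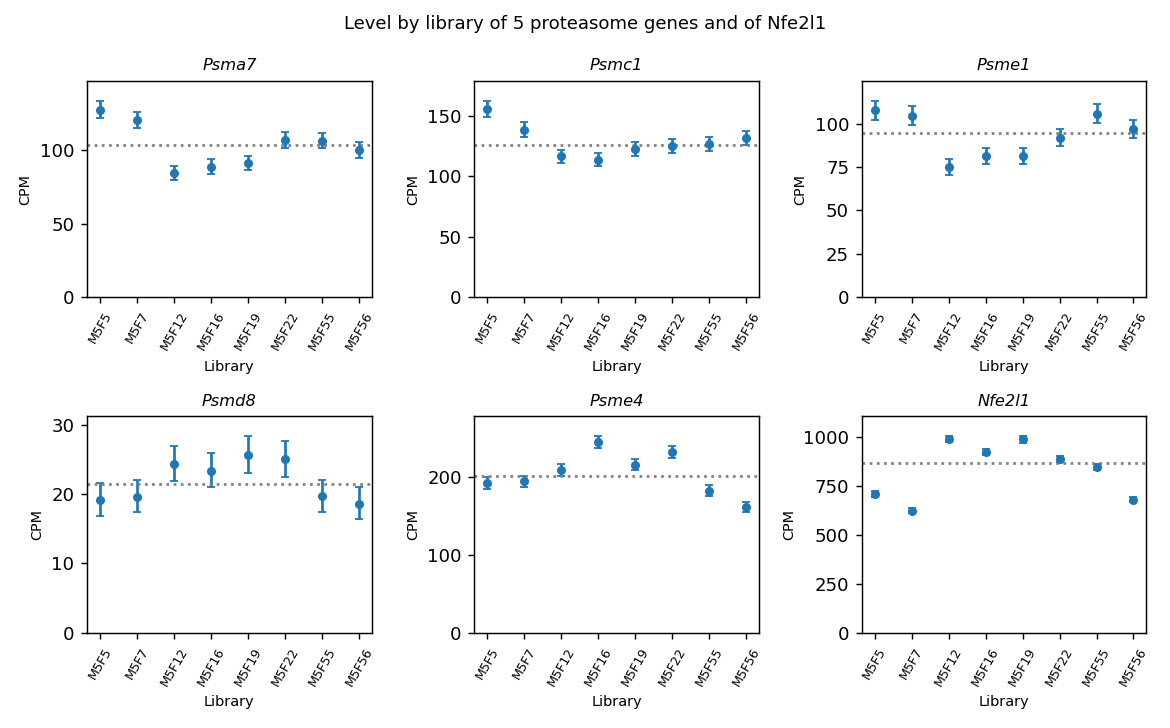
CPM by library, with exact 95% Poisson intervals, of Psma7 (core), Psmc1 (cap) and Psme1 (activator) in the top row and of Psmd8 (cap), Psme4 (activator) and Nfe2l1 (transcription factor) below; dotted lines are medians. The top genes are highest in M5F5 (128, 156 and 108 CPM), and Psmd8, Psme4 and Nfe2l1 are higher in M5F12, M5F16, M5F19 and M5F22 than in the other 4.

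Of 31 partner genes of the proteasome and of ubiquitin tagging, 29 (93.5%) differed beyond counting error, near the 86.4% of all genes tested. Of the partners 3 (9.68%) spanned 1.5-fold, against 42.2% of all genes tested, and the median fold was 1.31, against 1.45. Abundant genes have less counting error, and over all genes averaging at least 500 counts the median fold was 1.33. The partners were not compared at that minimum, so whether they were narrower than genes of like abundance was not tested. Nfe2l1, the transcription factor known in mouse and human to raise proteasome genes when proteasome activity falls, had the widest trimmed range of the partners. It was at 708 CPM in M5F5, 622 in M5F7, 988 in M5F12, 921 in M5F16, 987 in M5F19, 886 in M5F22, 845 in M5F55 and 679 in M5F56, low in M5F7, M5F56 and M5F5 and high in M5F12 and M5F19. Nfe2l1 and Psmd1 had r = 0.72 (exact permutation p = 0.0499, adjusted p = 0.112) and rho = 0.74 (exact permutation p = 0.0458, adjusted p = 0.1375), with r = 0.59 without M5F7 and M5F56. Psmd1 is among the cap genes that did not follow the order of the core. Nfe2l1 was low in M5F5 and M5F7, where the core sum was highest (1964 and 1878 CPM), and high in M5F12, where the core sum was low (1535 CPM). No relation of Nfe2l1 with any other member was tested. Nfe2l2, a related factor of the oxidative stress response, ran from 65.8 CPM in M5F19 to 97.8 in M5F12.

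Pomp and Sem1 were high and low in nearly the same animals as the core genes. Pomp, the maturation factor of the core, was highest in M5F5 (113 CPM) and M5F7 (108 CPM) and lowest in M5F12 (86.3 CPM). Sem1, a small subunit of the cap, was highest in M5F7 (136 CPM) and M5F5 (127 CPM) and lowest in M5F16 (92.8 CPM). The other gene with a wide trimmed range was Zfand2a, a proteasome adaptor known to be induced by arsenite, from 7.35 CPM in M5F5 to 16.3 in M5F19.

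Single genes of core and cap were set against each other in a pair of relations. Psmb1 and Psmd1 had r = -0.55 (exact permutation p = 0.163, adjusted p = 0.245) and rho = -0.62 (exact permutation p = 0.115, adjusted p = 0.198), with r = -0.76 without M5F5 and M5F16. The Psma1 row and Psmc1 had r = -0.27 (exact permutation p = 0.517, adjusted p = 0.582) and rho = -0.50 (exact permutation p = 0.216, adjusted p = 0.278), with r = -0.24 without M5F19 and M5F22. With LOC101822549 in place of the Psma1 row, an alternative chosen after seeing the data, r was 0.91 (exact permutation, adjusted p = 0.00792), and with both rows summed 0.86 (adjusted p = 0.0182), so the sign of this relation depends on which row is taken as Psma1.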

How the data were processed

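The deposited table holds counts, whole numbers per gene and library; per the labels' protocols, Trizol was used for extraction and polyA probes for capture. The tools named, per the submitters' processing notes, are RSEM, Bowtie2 2.2.5 and HISAT2 2.0.4, without roles. Genome build, annotation, strand setting and any rounding of RSEM estimates are not stated in these sources. Reads of near-identical or overlapping genes may be divided in either way. All 8 columns matched a library title. From these counts CPM were computed with TMM factors of 0.960 to 1.05 (edgeR 4.0.16, R 4.3.3). Genes averaging 50 counts or more were tested by chi-square against equal relative abundance, with Benjamini-Hochberg adjustment over all of them at 0.05; this, and the 95% intervals, cover counting error only. Relations used exact permutation over all pairings, and none was given where a gap of over 0.5 of the range left at least 2 libraries on both sides. The floor is 3 counts per library. The chi-square and range steps and the permutation test were tested on simulated data. The alternatives were DESeq2 1.42.0 size factors, total counts, no filter, a minimum mean of 500 counts, a prior count of 5, and each library left out.

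The members and lists were chosen with earlier results of these data known. Values in every library are given for Psmb5 to Psmb9, Psme1, Psme2 and, in each class, mainly the 3 members with the widest trimmed and the 2 with the narrowest full range; Psma1, Psmd10, Psmc4, Psmc6, Psmd14 and Psme4 were added after their values were seen. Planned levels per length, the Psmb10 pairs and sequences were not analysed here. The result of 1 of the 9 relations computed is not reported here.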

Additional observations from a re-analysis of the deposited data

Results flagged for a closer look

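In a pair of members the highest library stood apart from the other 7 by more than Dixon's 95% limit for 8 values on log2 CPM. Psmc6, an ATPase of the cap, was at 202.7 CPM in M5F22 and at 172 to 180.4 CPM in the other 7. Psmd10, a chaperone of the base, was at 23.49 CPM in M5F22 and at 17.1 to 18.7 CPM in the other 7. Chance flags about 1 gene in 20, and 46 members were examined. The 8 libraries are not a labelled group, and the cause was not tested.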

How the results depend on the processing

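The count of 40 members differing beyond counting error was 32 to 42 over all alternatives run. With a mean count of at least 500, 2 members spanned 1.5-fold. At that minimum 0 spanned 2-fold or 1.5-fold by the trimmed range, since Psmb8 and Psmb9 are then not tested (35 members are). The shares of all genes given above are for a mean count of at least 50 and do not apply to these counts. Shares of all genes at 500 counts are not given here. The median fold was then 1.42 for the immunoproteasome and 1.22 for activators and chaperones. Leaving out 1 library gave 0 to 1 members spanning 2-fold, and 0 to 1 spanning 1.5-fold by the trimmed range, 0 without M5F16, M5F19, M5F55 or M5F56. Median folds over the same omissions were 1.32 to 1.34 for the core, 1.48 to 1.60 for the immunoproteasome and 1.32 to 1.37 for activators and chaperones. With total counts the median folds were 1.30 for the core, 1.18 for the cap and 1.32 for activators and chaperones, and M5F5 and M5F12 held 20 highest and 12 lowest members in place of 25 and 18. The Psmb8 share, 1.52-fold between libraries, was 1.84-fold when pooled with the Psmb9 share, and the Psmb9 share, 2.58-fold, was 1.81-fold to 2.58-fold on leaving out 1 library. The r of Psme1 and Psme2 was 0.87 to 0.93 over these omissions. The relation of Psma1 and Psmc1 reversed to r = 0.86 with both Psma1 rows and 0.91 with LOC101822549 alone, both chosen after seeing the data. No r was given for Psmd1 with total counts or for Psma1 and Psmc1 without M5F12 or M5F56, where values fell into separate clusters. No paired analysis was possible because the labels give no groups. Counts per length were not run. The cause of these shifts was not tested.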

Other observations

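The values of Psmd8 fell into separate clusters, 4 libraries each, with M5F12, M5F16, M5F19 and M5F22 at 23.3 to 25.6 CPM and M5F5, M5F7, M5F55 and M5F56 at 18.6 to 19.6 CPM; the gap took 53.2% of its log2 range. Psmb3 fell into 6 libraries at 109 to 123 CPM and M5F12 and M5F16 at 95.7 and 95.9 CPM, with a gap of 50.4% of the range. M5F12, M5F16, M5F19 and M5F22 were also all above the other 4 in Psmd1, Psme4 and Nfe2l1. The same held for the partner genes Uba1, Kiaa0368, Ube3c, Nploc4, Mafg and Ubqln4, some other listed genes and the cardiomyocyte marker Ryr2. No other cardiomyocyte marker examined split in this way. The same libraries were all below the other 4 in the endothelial markers Cdh5, Kdr, Tek and Tie1. They were not in the endothelial markers Pecam1 (209 CPM in M5F12, 163 in M5F55) and Emcn (62.5 CPM in M5F12, 60.7 in M5F7). The share of all genes split in this way was not counted. The labels give these libraries no genotype, and no group was made of them.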
